A study of Mus musculus with 12 samples.

Results

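The proteasome and immunoproteasome genes were followed across a mouse macrophage-like cell line and macrophages from the lung. Members were all genes whose probe set is annotated with 1 symbol that begins with Psma, Psmb, Psmc, Psmd, Psme, Psmf or Psmg followed by a number. Where a gene had several probe sets, the brightest by its mean level on the 12 arrays stood for it. This gave 48 of the 12393 genes measured. They were 15 genes of the core particle, 20 of its regulatory caps, activators and inhibitor, 7 assembly chaperones and 4 genes of the immunoproteasome. The 2 others carry the name without being subunits: Psmc3ip encodes a meiotic recombination factor also known as HOP2, and Psme3ip1 a protein that binds the nuclear activator encoded by Psme3. The activator gene Psme2 belongs to the immunoproteasome, but its probe set is annotated with a further gene as well, so the rule left it out and it was not analysed here.

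The proteasome is the barrel-shaped protease that degrades ubiquitin-tagged proteins in the cytosol and nucleus. Its core is built of alpha rings, which gate the entry, and beta rings, which hold the catalytic sites. A cap of ATPases and other subunits recognises and unfolds the substrate. In cells exposed to interferon gamma, and constitutively in many immune cells, the catalytic subunits encoded by Psmb5, Psmb6 and Psmb7 are replaced by those of Psmb8, Psmb9 and Psmb10, and the activator encoded by Psme1 and Psme2 can dock in place of the cap. This immunoproteasome supplies many of the peptides that TAP transporters carry to MHC class I molecules, which makes it of interest in macrophages.

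RNA came from 12 samples in 4 groups of 3. RAW264.7, a macrophage-like tumour line of mouse, was either left as the Unstimulated group, which the series' design text describes as vehicle-treated, or cultured overnight with estradiol at 1 ug/mL as the Estradiol group. Bronchoalveolar lavage (BAL) macrophages, cells washed out of the airways and alveoli, came from Control and Pregnant mice and went directly to RNA extraction. The protocol text of every sample names estradiol, also for lavage and Unstimulated samples, so groups rest on the group label alone. Strain, age, genotype, stage of pregnancy and sex of the controls are not given in the sources used here, and nothing states whether replicates were separate cultures or animals, so every p-value speaks of the spread among these samples alone, part of which may be technical. RAW264.7 is a single line grown in culture and the lavage cells are not stated to have been sorted, which limits each as a model of alveolar macrophages.

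The regulatory sequences next to the 4 immunoproteasome genes and the constitutive Psmb5 are shown because results on these genes lead the comparisons. They are RefSeq windows on build GRCm38.p6, written 5′ to 3′ on the strand of the gene. Psmb9 and Tap1, which encodes a subunit of the peptide transporter, lie head to head on chromosome 17, and only 225 bases separate their starts. That stretch, chr17:34187331-34187555 on the minus strand, is shown as read towards Psmb9. The start of Psmb8 lies 10639 bases from that of Tap1 on the same strand, and the 150 bases before it are chr17:34198045-34198194 (plus strand). For Psmb10 the 150 bases are chr8:105938393-105938542 (minus strand), for Psmb5 chr14:54617996-54618145 (minus strand), and Psme1 is shown over chr14:55578414-55578513 (plus strand), which holds 20 bases after its start. Capitals mark a match to the GAS element TTCNNNGAA in Psmb8, to the IRF element (GAAA, any 2 bases, GAAA, here on the opposite strand) in Psme1, and to the antioxidant response element TGACNNNGC in Psmb5.
Psmb9: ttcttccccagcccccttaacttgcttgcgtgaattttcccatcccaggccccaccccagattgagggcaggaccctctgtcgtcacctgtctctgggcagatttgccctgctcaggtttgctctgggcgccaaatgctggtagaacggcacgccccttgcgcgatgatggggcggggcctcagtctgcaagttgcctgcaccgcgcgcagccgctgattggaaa
Psmb8: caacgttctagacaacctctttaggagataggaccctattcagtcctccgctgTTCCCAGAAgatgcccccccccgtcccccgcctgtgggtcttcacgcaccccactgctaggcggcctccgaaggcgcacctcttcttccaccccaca
Psmb10: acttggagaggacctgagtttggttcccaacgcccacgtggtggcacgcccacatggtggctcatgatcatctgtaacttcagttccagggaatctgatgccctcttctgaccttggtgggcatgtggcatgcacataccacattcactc
Psme1: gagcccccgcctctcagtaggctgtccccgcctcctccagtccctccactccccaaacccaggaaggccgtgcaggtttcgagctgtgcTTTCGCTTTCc
Psmb5: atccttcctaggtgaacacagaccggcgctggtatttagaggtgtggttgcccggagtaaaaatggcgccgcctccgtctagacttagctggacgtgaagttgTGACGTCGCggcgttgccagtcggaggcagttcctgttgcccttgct
These elements, and the NF-kB element (GGG, any 2 bases, TTTCC), were searched on both strands of windows of 300 bases, from 250 before to 50 after the start. The IRF letters were in 3.44% of the 32851 windows of the table, the GAS letters in 8.30%, the NF-kB letters in 1.63% and the antioxidant letters in 12.4%. Of 43 windows matched to 40 members, 5, 3, 1 and 6 held them, respectively. The windows of Psmb9 and Psmb10 held none of the 4, which says only that these letters are not there.

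The arrays had median intensities of 369 to 393, and arrays of a group correlated at 0.995 to 0.999. All 48 members lay above the 40th percentile of all 12 arrays, and their median SD within groups was 0.06 (log2), against 0.11 over all genes. Levels below are log2(intensity + 1). Both sources held macrophage transcripts: Csf1r was 13.63 to 13.87 on the RAW264.7 arrays and 13.22 to 13.33 on the lavage arrays. The alveolar macrophage markers Siglecf, Chil3, Car4 and Marco were above the 40th percentile on all lavage arrays and on none of RAW264.7. Itgax, also such a marker, was above it on all arrays of both sources, at 11.05 to 11.73 in RAW264.7. Of 10 measured alveolar markers, 4 were above it on all 3 arrays of each RAW264.7 group, and all 10 in each lavage group. Between Control and Unstimulated samples 9 of them were called higher and 1 lower, Fabp4 at -1.90. Lavage samples also held transcripts of other cells, with summed epithelial marker intensities of 14469 to 25348 in Control and 16600 to 29432 in Pregnant samples, against 540 to 674 in RAW264.7. Cd3e, Cd3d and Cd3g of T cells were above the 40th percentile on 2 of 3 Control arrays and on no Pregnant array, whereas Cd2 was 13.31 to 13.51 on all lavage arrays. In each lavage group 8 of 9 B cell markers and 8 of 9 NK cell markers were dim, that is not above the 40th percentile on all 3 arrays; Cd22 (12.41 to 12.58 on the lavage arrays) and Prf1 were the exceptions. Neutrophil markers summed to 7563 to 21924 in Control and 7595 to 12328 in Pregnant samples, with 3 of 8 dim in each group. Dendritic cell markers summed to 7154 to 8210 and 6452 to 7960, with 4 of 8 dim in Control and 5 of 8 in Pregnant samples. The brightest of them in Control samples was Ly75, whereas Flt3 and Xcr1 were above the 40th percentile on no lavage array. In such bulk samples, fewer cells of a type and less RNA per cell cannot be told apart. Actin probe sets at the 3′ and 5′ ends, a sign of RNA quality, lay 0.74 apart in Estradiol replicate 2 and 0.39 to 0.48 apart in the other samples of the line. That array also had the widest gaps of the line for Gapdh, 0.47 against 0.29 to 0.36, and pyruvate carboxylase, 2.51 against 1.66 to 2.30. Of the lavage arrays, Pregnant replicate 2 had the widest gaps, 2.47 for pyruvate carboxylase, 0.44 for Gapdh and 0.39 for actin. In the other lavage samples these were 1.40 to 1.85, 0.33 to 0.39 and 0.26 to 0.35.

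The first comparison asked what overnight estradiol does to RAW264.7 cells. Psmb10 and Psmb8, catalytic subunits of the immunoproteasome, were lower after estradiol, 1.25-fold and 1.22-fold, and no member was called higher. The other measured immunoproteasome genes, Psmb9 and Psme1, were also lower on every estradiol array but did not pass the test. Constitutive catalytic, structural and cap genes differed by 0.17 or less and none was called. In limma at an adjusted p under 0.05, 2 of 48 members were called, against 11.4% of all genes. By direction, 2 were lower (4.66% of all genes) and 0 higher (6.75%), and 12 members had an unadjusted p under 0.05 (26.9%).

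Psmb10, the inducible trypsin-like subunit that takes the place of Psmb7, was 11.76, 11.86 and 11.72 in Unstimulated and 11.40, 11.47 and 11.49 in Estradiol samples. The groups did not overlap, and the highest estradiol array lay below the lowest Unstimulated one. Psmb10 fell by 0.32 (SE 0.06, 1.25-fold, adjusted p = 0.0145, n = 3 per group). Psmb8, the inducible chymotrypsin-like subunit that replaces Psmb5, was 11.30, 11.35 and 11.26 without and 10.96, 11.06 and 11.02 with estradiol. Again the groups were apart, and Psmb8 fell by 0.29 (SE 0.05, 1.22-fold, adjusted p = 0.0159). Both calls rested on single arrays: Psmb10 was lost without Unstimulated replicate 1 (adjusted p = 0.0555) or 2 (0.0614), and Psmb8 without Unstimulated replicate 1 (0.0672) or 2 (0.0774), without Estradiol replicate 3 (0.0581) and with arrays set to a common median (0.0538). Over all alternatives the adjusted p ran from 0.0027 to 0.0614 for Psmb10 and from 0.0014 to 0.0774 for Psmb8. Both calls were kept without Estradiol replicate 2, the RAW264.7 array with the widest gaps between probe set ends.

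Psmb9, which replaces Psmb6, was 10.99, 11.08 and 10.85 in Unstimulated and 10.73, 10.72 and 10.84 in Estradiol samples. The gap between the groups was narrow, 10.85 against 10.84, and the difference of -0.21 (95% interval -0.38 to -0.04) did not pass the test (adjusted p = 0.116). Psme1, a subunit of the PA28 activator ring, was 13.19, 13.26 and 13.22 without and 13.11, 13.03 and 13.14 with estradiol. Its difference was -0.13 (95% interval -0.25 to -0.01, adjusted p = 0.165). All 4 immunoproteasome genes were therefore lower without overlap. So were 22 of all 48 members, against 14.9% of all genes, while 2 were higher without overlap (19.9%), together 24 (34.8%). Their median difference was -0.25, beside 0.02 over all genes tested.

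**Figure D1:**
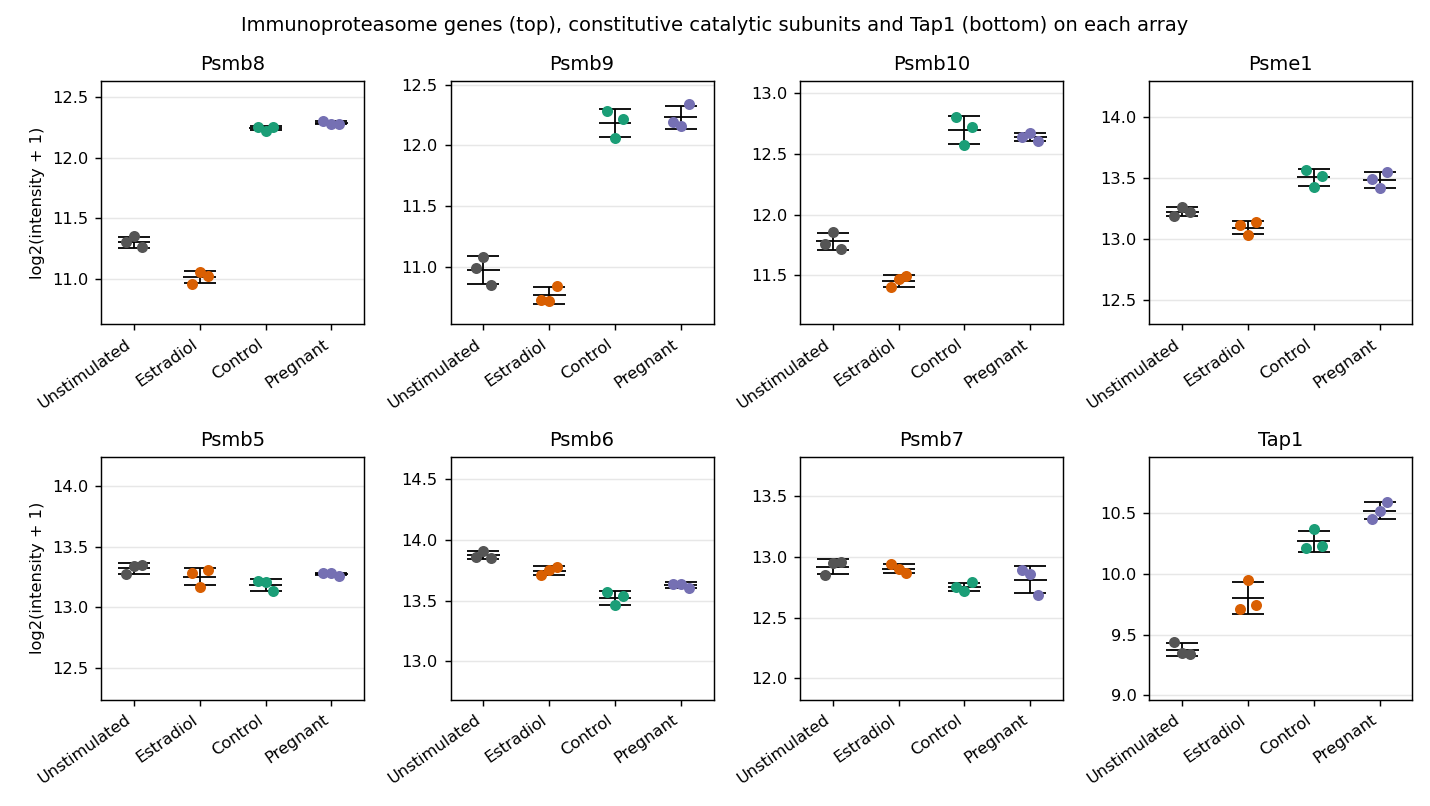
Levels (log2 intensity + 1) of the 4 measured immunoproteasome genes, their 3 constitutive counterparts and Tap1 on each of the 12 arrays; points are arrays, bars the mean and SD of 3, and every panel spans the same range on the log2 axis. Psmb8 and Psmb10 lie lower in Estradiol than in Unstimulated samples, and all 4 immunoproteasome genes lie higher in both lavage groups.

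None of the remaining members was called after estradiol, though some differed by as much as Psmb9 or Psme1. Of the 42 components outside the immunoproteasome, 17 were lower without overlap and 2 higher, against 14.9% and 19.9% of all genes. The 15 core genes had a median difference of -0.04 and ranged from -0.13 (Psmb6, the constitutive caspase-like subunit, adjusted p = 0.148) to 0.07 (Psma5, an alpha ring subunit). Psmb5 differed by -0.07 (95% interval -0.20 to 0.07) and Psmb7 by -0.01 (-0.14 to 0.11). The 20 regulatory genes had a median of -0.05, between Psmd7 of the cap's lid at -0.17 and Psme4, the nuclear activator PA200, at 0.13. Psmd13, another lid subunit, had the smallest p among them (difference -0.17, adjusted p = 0.0652). Of the 7 assembly chaperones, Psmd9 was at -0.20 (adjusted p = 0.103) and Psmg4 at 0.14 (adjusted p = 0.160). Psmc3ip, the recombination factor, differed by -0.26 (adjusted p = 0.0603).

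In sign, 39 of 48 members were below 0, against 45.1% of all genes. This split moved with the scaling of the arrays: 33 were below 0 with a common median over all probe sets and 43 with a common median over the genes, beside 836 genes called higher and 578 lower in the main fit, 871 and 417 with the first and 620 and 707 with the second. No scaling shifted the median of all genes by more than 0.04 in this comparison. Psmb8 and Psmb10 were lower under each of them. The change of an inducible subunit was also set against that of its constitutive counterpart on the same arrays, which removes any shift common to both. The change of Psmb10 minus that of Psmb7 was -0.31 and that of Psmb8 minus Psmb5 was -0.22, in both cases without overlap, and that of Psmb9 minus Psmb6 was -0.08. The exact permutation test of 3 against 3 arrays cannot go below 0.1, which was the two-sided p of the first pairs. That of the last pair was 0.3, and over the 9 such tests the lowest Benjamini-Hochberg value was 0.18.

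Genes around the proteasome were called in both directions. Of 18 measured genes of interferon gamma signalling and IRF1 targets, 4 rose and 2 fell, against 6.75% and 4.66% of all genes. Gbp2 and Gbp3, guanylate-binding GTPases, rose by 1.07 (adjusted p = 0.0032) and 0.71 (0.0187), although both stayed dim in RAW264.7 (4.82 to 6.10 and 4.93 to 5.87). Cd74, the MHC class II invariant chain, rose by 0.27 (adjusted p = 0.0207), and Irgm1, an immunity-related GTPase, fell by 0.50 (0.0127). Of the calls named here, that of Gbp2 held in each of the 14 alternatives that kept it, whereas those of Gbp3, Cd74 and Irgm1 were lost without single arrays (adjusted p up to 0.0720, 0.0910 and 0.0551), and that of Cd74 also in the fit of all 12 arrays (0.277). Of 14 measured genes of MHC class I peptide supply, Tap1 alone was called, against 11.4% of all genes. Tap1 was 9.44, 9.35 and 9.34 without and 9.71, 9.95 and 9.74 with estradiol, a rise of 0.42 (SE 0.08, adjusted p = 0.0159). This call was lost when the probe sets of Tap1 were averaged (0.11, adjusted p = 0.243) and without Unstimulated replicate 2 or 3 (0.0720 and 0.0713). Tap1 and Psmb9 share the 225 bases printed above, and Tap1 rose where Psmb9, which was not called, read lower. Their changes differed by 0.64, with an exact permutation p of 0.1, the smallest that 3 against 3 arrays allow. This pair was not among the 9 adjusted tests above, and the 0.64 rests on the brightest Tap1 probe set. In pregnancy the difference was 0.21 (exact permutation p = 0.3). Between the sources, where both genes were higher, it was -0.32 (exact permutation p = 0.2).

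NFE2L1 is the transcription factor that drives proteasome genes when proteasome activity is short; it works with small MAF partners and is processed at the endoplasmic reticulum. Of 13 measured genes of this list, 4 rose and none fell in limma, against 6.75% and 4.66% of all genes, with a median of 0.11. An unadjusted p under 0.05 was reached by 7 of them (26.9% of all genes). Maff, a small MAF factor, went from 7.89, 7.69 and 7.70 to 8.53, 8.53 and 8.35, a rise of 0.71 (adjusted p = 0.0024) that held in each of the 15 alternatives. Mafk rose by 0.33 (adjusted p = 0.0207), Syvn1, the ubiquitin ligase HRD1, by 0.37 (0.0320), and its partner Sel1l by 0.19 (0.0394). These 3 calls were lost in 4, 5 and 5 of the 6 fits that left out an array (adjusted p up to 0.0869, 0.114 and 0.147), that of Syvn1 also in the fit of all 12 arrays (0.0988) and that of Sel1l with averaged probe sets (0.503) and a common median of genes (0.135). Of 10 proteasome partners, 0 were called and 1 had an unadjusted p under 0.05 (Ubqln2, a shuttle factor, at 0.14), and of 5 genes of ubiquitin supply 0 were called and 0 had one. Beside these values, 3 of 14 proliferation genes fell (4.66% of all genes), with summed intensities of 71610 to 72458 in Unstimulated and 65269 to 71052 in Estradiol samples. The part of proliferation in the immunoproteasome difference was not tested.

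The second comparison asked whether lavage macrophages of pregnant mice differ from those of controls. No member was called, and neither was any other gene: 0 of 48, against 0% of all genes (limma). At an unadjusted p under 0.05 there were 1 member and 1163 genes (9.38%). The immunoproteasome genes differed by 0.06 or less. Psmb8 was 12.25, 12.22 and 12.25 in Control and 12.30, 12.28 and 12.28 in Pregnant samples, a difference of 0.05 (95% interval -0.08 to 0.18, adjusted p = 0.813). The Pregnant arrays were all a little higher, by less than the interval can tell from 0.

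For the other immunoproteasome genes the groups overlapped. Psmb9 was 12.28, 12.06 and 12.22 in Control and 12.19, 12.16 and 12.34 in Pregnant samples, with a difference of 0.05 (95% interval -0.16 to 0.25, adjusted p = 0.888). Psmb10 was 12.80, 12.57 and 12.72 against 12.64, 12.67 and 12.61, a difference of -0.06 (-0.24 to 0.13, adjusted p = 0.843). Psme1 was 13.57, 13.43 and 13.52 against 13.49, 13.42 and 13.55, a difference of -0.02 (-0.18 to 0.14, adjusted p = 0.948). These intervals bound the change of each gene but do not show equality. Against the constitutive counterparts the differences were also small, from -0.04 for Psmb8 to -0.12 for Psmb10, with exact permutation p-values of 0.2 to 0.5.

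Of the 20 regulatory genes, 19 were above 0 in pregnancy, and 0 were called. Psmc5, an ATPase of the cap, had the smallest p: 11.41, 11.34 and 11.36 in Control and 11.57, 11.64 and 11.47 in Pregnant samples, a difference of 0.19 (SE 0.07, adjusted p = 0.485). Its groups were apart, yet it did not pass the test. These regulatory genes had a median difference of 0.10 and 10 of them were higher without overlap, 5 of them among the 6 ATPases, whose differences ran from 0.08 to 0.19. In all, 15 of 48 members were higher without overlap and 0 lower, against 10.7% and 4.99% of all genes, together 15.7%. Psmd4, the ubiquitin receptor of the cap, was at 0.12 (adjusted p = 0.561), and Psmd11, a lid subunit, at 0.16 (0.634). Pregnant replicate 2 was the lavage array with the widest gaps between probe set ends. It read highest of the Pregnant arrays for all regulatory genes except Psmc3, Psmd4, Psmd6, Psmd8, Psme3 and Psme4. The part of RNA quality in these values was not tested. The 15 core genes had a median of 0.06, between 0.03 (Psma5) and 0.17 (Psma8), with Psmb5 at 0.08, Psmb6 at 0.11 and Psmb7 at 0.06. Psmd9 and Psmd10, assembly chaperones, were at -0.08 and 0.16. The inhibitor gene Psmf1 was at 0.15, the activator gene Psme3 at -0.12, and Psmc3ip at 0.23 (adjusted p = 0.666).

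In the deposited values 43 of 48 members were above 0, against 60.5% of all genes, with a members' median of 0.07. Quantile normalization gave 43 above and a median of 0.07, and a common median over all probe sets 45 and 0.10. With a common median over the genes, 31 were above and 17 below, and the median was 0.01. Other transcripts moved with the groups too. All 14 proliferation genes were above 0, with summed intensities of 25022 to 28932 in Control and 28704 to 36129 in Pregnant samples, 10 of 12 epithelial markers were above 0, and Cd3g was 1.37 lower on the log2 scale with no call. Their part in the cap values was not tested. Around the proteasome 0 of 10 partners, 0 of 13 genes of the NFE2L1 list, 0 of 5 of ubiquitin supply, 0 of 14 of MHC class I peptide supply and 0 of 18 of the interferon gamma list were called, where 0, 2, 1, 1 and 2 had an unadjusted p under 0.05. Irf1, the interferon-induced factor that drives immunoproteasome genes, was 11.62, 11.58 and 11.55 in Control and 11.28, 11.26 and 11.23 in Pregnant samples, a difference of -0.32 (adjusted p = 0.395). The Irf1 groups lay apart, as for 4.99% of all genes in the lower direction. Those of Psmb8 lay apart too, in the higher direction, and those of Psmb9, Psmb10 and Psme1 overlapped. A link between Irf1 and these genes was not tested.

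Whether estradiol in the line and pregnancy in the mouse had different effects was tested directly, as the pregnancy change minus the estradiol change over all 12 arrays. Psmb8 was the 1 member of 48 called, against 4.43% of all genes, or 2.21% in its direction and 2.22% in the other. An unadjusted p under 0.05 was reached by 14 members (19.3% of all genes). Its estradiol change of -0.29 and its pregnancy difference of 0.05 differed by 0.33 (SE 0.07, adjusted p = 0.0205, limma). The call was lost without Estradiol replicate 3 (0.0536), without Unstimulated replicate 1 (0.0581) or 2 (0.0669) and with a common median (0.0523), and the adjusted p ran from 0.0050 to 0.0669 over the alternatives. For Psmb10 the same quantity was 0.27 (95% interval 0.06 to 0.47, adjusted p = 0.145), for Psmb9 0.26 (0.01 to 0.51, adjusted p = 0.244) and for Psme1 0.11 (-0.07 to 0.29, adjusted p = 0.507). Psmd13 of the lid had the next smallest p (0.25, adjusted p = 0.0694), before Psmb6 (0.23, 0.0906) and the ATPase gene Psmc6 (0.24, 0.0999). Psmc3ip gave the largest value, 0.50 (0.164), with a wide interval of 0.09 to 0.90.

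**Figure D2:**
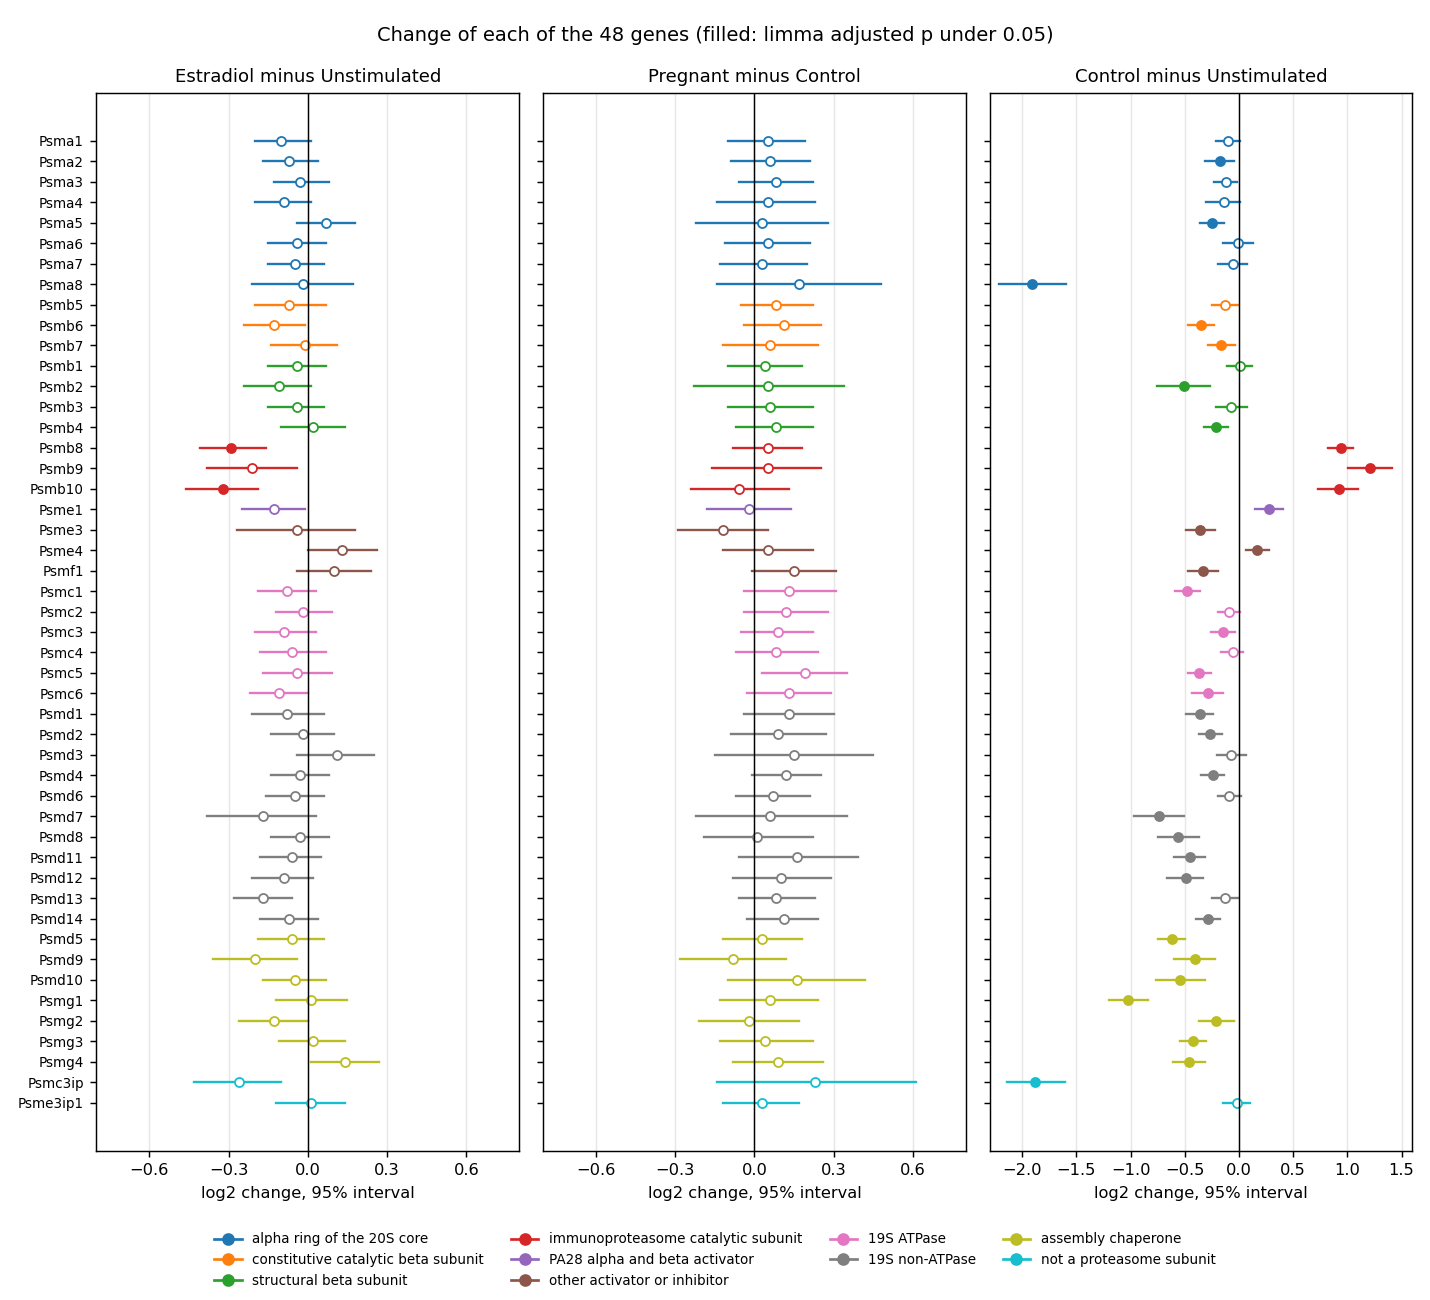
Log2 change of each of the 48 genes with its 95% interval in the estradiol, pregnancy and source comparisons, coloured by class; filled points passed limma at an adjusted p under 0.05, and the source panel has a wider axis. Estradiol has 2 filled points, Psmb8 and Psmb10, and pregnancy 0. In the source panel the 4 immunoproteasome genes and Psme4 are filled right of 0, Psmb1 is open at 0.01, and 29 genes are filled left of 0.

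The third comparison set Control lavage macrophages against Unstimulated RAW264.7 cells. The immunoproteasome genes were all higher in lavage cells, the catalytic ones around 2-fold, while assembly chaperones and most cap genes were lower. Of 48 members, 5 were called higher and 29 lower, together 34 against 61.9% of all genes, or 27.9% higher and 34.0% lower. An unadjusted p under 0.05 was reached by 37 members (65.7%), and 41 did not overlap between the sources (69.9%), 5 of them higher (30.8%) and 36 lower (39.1%). The sources differ in origin, culture and cell makeup at once. Sex may differ too, as the Y-linked gene Eif2s3y had the largest fall of all genes, at -8.77. Origin, culture, cell makeup and sex cannot be told apart here. Summed proliferation intensities of 25022 to 28932 against 71610 to 72458, with 14 of 14 genes lower, went along with the difference between the sources. So did neutrophil markers, with sums of 7563 to 21924 against 482 to 527 and 6 of 8 higher, dendritic cell markers, with 7154 to 8210 against 345 to 371 and 6 of 8 higher, and epithelial markers, with 12 of 12 higher. Their part in the members' values was not tested.

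Psmb9 was 10.99, 11.08 and 10.85 in RAW264.7 and 12.28, 12.06 and 12.22 in Control lavage samples. It was higher by 1.21 (SE 0.08, 2.31-fold, adjusted p = 2.8e-05). Psmb8 was higher by 0.94 (SE 0.05, 1.91-fold, adjusted p = 6.3e-06), from a mean of 11.30 to 12.24, and Psmb10 by 0.92 (SE 0.08, 1.89-fold, 6.7e-05), from 11.78 to 12.69. For each of them the lowest lavage array was above the highest RAW264.7 array. Psme1 was higher by 0.28 (SE 0.05, 1.22-fold, adjusted p = 0.0039), from 13.22 to 13.51. All 4 calls were kept in each of the 15 alternatives. The constitutive counterparts went the other way or were not called: Psmb6 was lower by 0.35 on the log2 scale (adjusted p = 0.00096) and Psmb7 by 0.17 (0.0284), while Psmb5 differed by -0.13 (95% interval -0.25 to -0.01, adjusted p = 0.0553). The call of Psmb7 was lost in 4 of the fits that left out an array (adjusted p up to 0.101). Relative to its counterpart, Psmb9 changed by 1.56 more than Psmb6, Psmb10 by 1.09 more than Psmb7 and Psmb8 by 1.07 more than Psmb5. Each had the smallest exact permutation p that 3 against 3 arrays allow, 0.1.

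The assembly chaperones were all lower in lavage cells, 7 of 7 against 34.0% of all genes, with a median of -0.46, beside -0.07 over all genes tested. Psmg1, which helps build the alpha ring, was 11.14, 11.25 and 11.18 in RAW264.7 and 10.19, 10.04 and 10.27 in lavage samples. It was lower by 1.02 on the log2 scale (SE 0.07, 2.03-fold, adjusted p = 3.3e-05), with no overlap. Psmd5, Psmd10 and Psmd9, which escort the ATPases of the cap, were at -0.62, -0.54 and -0.41, and Psmg4, Psmg3 and Psmg2 at -0.46, -0.42 and -0.21. The call of Psmg2 was lost in 5 of 6 fits that left out an array (adjusted p up to 0.106).

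Among the 20 regulatory genes 14 were called lower and 1 higher, against 34.0% and 27.9% of all genes, with a median of -0.29. Of the 14, the lower calls of Psmd7, Psmc6 and Psmf1 depended on the probe set. Psmc1, an ATPase, was 12.95, 12.96 and 12.95 against 12.54, 12.44 and 12.46, a difference of -0.48 (SE 0.05, adjusted p = 0.00017) with the groups far apart. Psmd8, Psmd12 and Psmd11 of the lid were at -0.56, -0.49 and -0.45, and Psmc5 at -0.37. Psme4 (PA200) was the one higher, by 0.17 (adjusted p = 0.0163), a call lost with averaged probe sets (0.187), with a common median over the genes (0.121) and without Unstimulated replicate 1 or 3 (0.0624 and 0.0508). Of the 15 core genes 7 were lower (46.7%, against 34.0% of all genes), and the median was -0.14. Psmb2, a structural beta subunit, was at -0.51 (adjusted p = 0.0045), and Psmb1 at 0.01 (95% interval -0.11 to 0.12) was closest to 0. Of the calls in these classes, those of Psma2 and Psmc3 were also lost without single arrays (adjusted p up to 0.0803 and 0.0846).

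The 2 largest differences were found outside the ordinary particle. Psma8 encodes an alpha subunit known from testis, where it stands in for Psma7. It was 10.49, 10.53 and 10.57 in RAW264.7 and 8.57, 8.91 and 8.40 in Control lavage samples, lower by 1.91 on the log2 scale (SE 0.13, 3.75-fold, adjusted p = 2.4e-05). Psmc3ip was 10.80, 10.83 and 10.66 against 8.92, 9.06 and 8.66, lower by 1.88 (SE 0.11, 3.68-fold, adjusted p = 1.3e-05). In both the lavage arrays lay more than a log2 unit below any RAW264.7 array. Estradiol arrays of the line, 10.35 to 10.65 for Psma8, and Pregnant arrays, 8.74 to 8.83, stayed near their own source.

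Probe sets of a gene did not always point the same way in this comparison. Of the called members, Psmc6, Psmd7, Psme3 and Psmf1 had a probe set with the opposite sign. For Psmd7, the brightest probe set was at -0.74 (adjusted p = 0.00058) and its other two at 0.29 and 0.21. Averaging them gave -0.08 (adjusted p = 0.359), so that call depends on the probe set chosen. For Psmc6 the brightest was at -0.29 and the others at 0.82 and 0.65, and their average was called higher, at 0.39 (adjusted p = 0.0021). For Psmf1 the brightest was at -0.33 and the other three at 1.42, 0.57 and 0.41, and the average was again called higher, at 0.52 (adjusted p = 0.00036). These directions therefore turn with the probe sets used. In the estradiol comparison such a disagreement could not arise, because the called members, Psmb8 and Psmb10, were each measured by a single probe set.

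**Figure D3:**
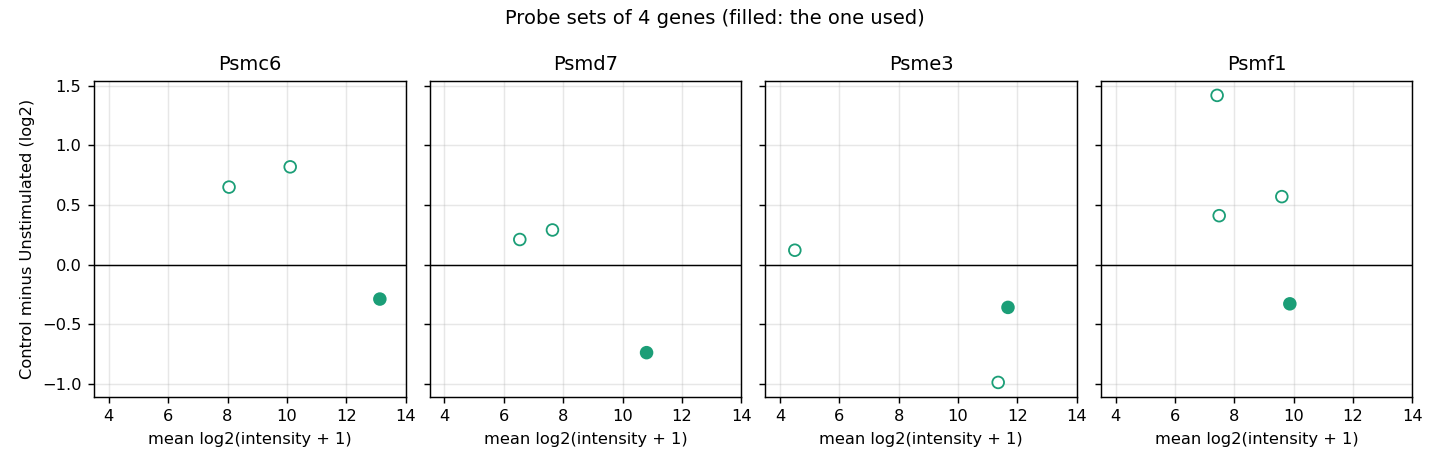
Control minus Unstimulated difference (log2, vertical axis) of every single-gene probe set of Psmc6, Psmd7, Psme3 and Psmf1 against its mean level over all arrays (log2 intensity + 1); the filled point is the probe set that stood for the gene. In each panel the brightest probe set lies below 0 and at least 1 dimmer probe set lies above it.

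The surrounding pathways held genes called in both directions, as did all genes (27.9% higher and 34.0% lower). The share called was 64.3% for MHC class I peptide supply, 61.5% for the NFE2L1 list, 60% for ubiquitin supply and 70% for the partners, near the 61.9% of all genes, and 72.2% for the interferon gamma list. Of 14 genes of MHC class I peptide supply, 6 were higher and 3 lower in lavage cells. Tap2 and Tap1, the transporter subunits, were higher by 1.35 (adjusted p = 1.0e-04) and 0.89 (3.2e-05), and the class I heavy chain H2-D1 by 0.41 (0.00023), while the peptidase gene Blmh was lower by 0.49 on the log2 scale (0.00042). Of the 18 genes of the interferon gamma list, 10 were higher and 3 lower, with a median of 0.68: Gbp2 by 5.94 (1.0e-07), Gbp3 by 4.79 (7.1e-07), Igtp by 1.81 (1.7e-06) and Irf1 by 1.70 (9.1e-07). Gbp2 and Gbp3 were below the 40th percentile on the RAW264.7 arrays, so their differences are lower bounds. Of the NFE2L1 list, 3 of 13 were higher and 5 lower, among them the small MAF gene Maff at 2.23 (7.8e-06), Ngly1, the glycanase that processes NFE2L1, at 1.08 (3.4e-06) and the ligase gene Btrc at -0.80 (8.1e-06). Of 10 partners, 3 were higher and 4 lower. Usp14 and Uchl5, deubiquitinases of the cap, were lower, Usp14 with a mean of 11.67 against 12.67 (1.5e-05) and Uchl5 at -0.69 (2.3e-05), and the shuttle gene Rad23b at -0.73 (3.2e-05). Of 5 genes of ubiquitin supply, 3 were lower, Usp5 most at -0.74 (2.8e-05).

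**Figure D4:**
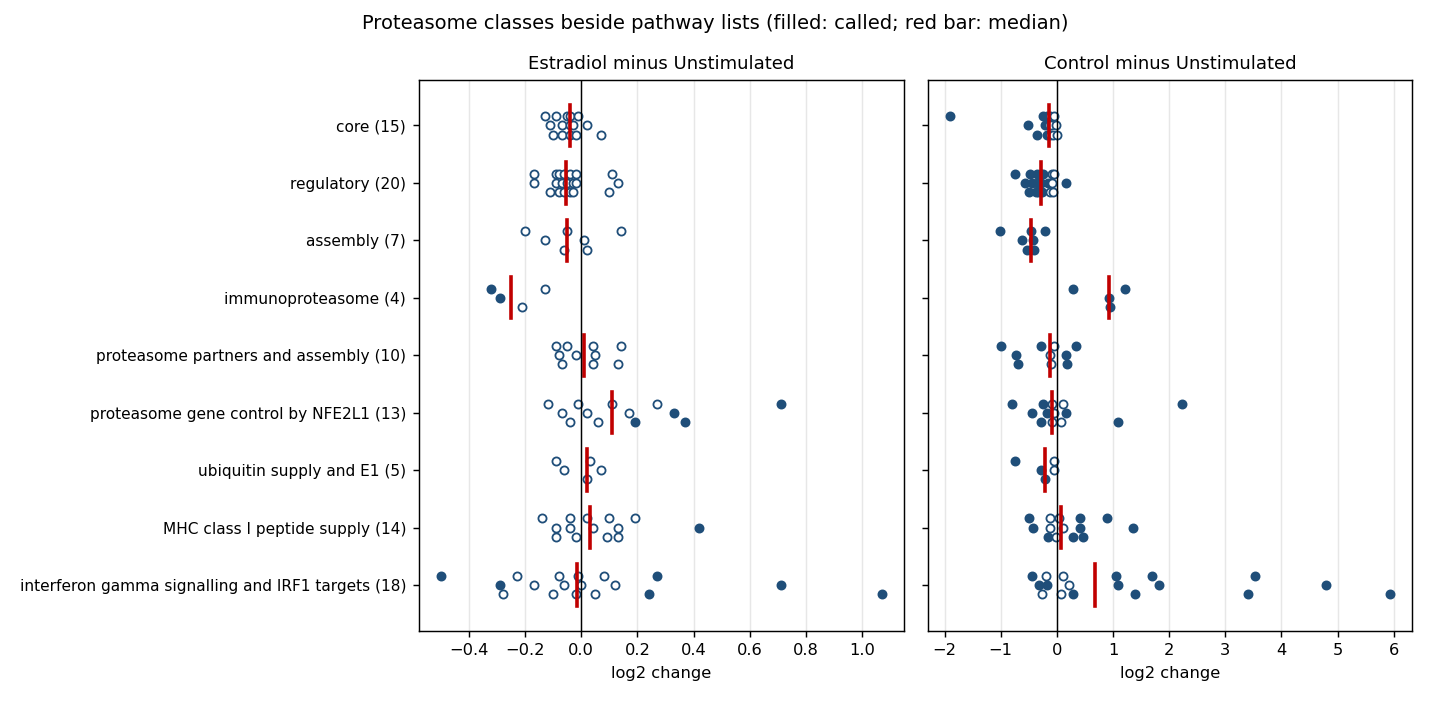
Log2 change of each gene by proteasome class and by pathway list, with the number measured in brackets, for the estradiol and source comparisons; filled points passed limma at an adjusted p under 0.05, red bars are medians and the axes differ in range. The immunoproteasome class has its median at -0.25 after estradiol and at 0.93 between the sources, and the interferon gamma list spreads widely in both.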

How the data were processed

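Total RNA of 12 samples was measured on 12 arrays, 3 per group. The deposited values are 1 linear intensity per probe set and array, made by the authors with RMA per the submitters' processing notes, with no version given; RMA normally gives log2 values, and the step back to a linear scale is not stated. Values ran from 6.51 to 28506, and log2(value + 1) was used, which slightly understates changes of dim genes. Of 22690 probe sets, 20380 were annotated with 1 gene, 691 with several and 1555 with none, and 64 were controls. No listed symbol was replaced and 29 had no current gene. For 4956 genes the brightest of several probe sets was used (21 members).

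Each comparison was fitted with limma 3.58.1 in R 4.3.3 (lmFit and eBayes) on its 6 arrays, and the difference between changes on all 12. Tests were two-sided, with Benjamini-Hochberg adjustment across all 12393 genes and a threshold of 0.05. The fits were tested on simulated data. The package data.table (1.17.8), Python 3.11.15, pandas 2.3.3, numpy 2.4.6, scipy 1.17.1 and matplotlib 3.10.9 were also used. The number of arrays limits the precision. No pair of arrays was identical.

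The members, their classes and 15 lists (160 of 187 entries measured) were chosen with earlier results of these data known. Named were the immunoproteasome and constitutive catalytic genes and Psmc3ip in each comparison, per class the smallest p and the largest rise and fall, all members where 15 or fewer were called, and per list up to 4 called genes or else the 2 smallest p-values. Further lavage differences and per-array levels were added after their values were seen. Alternatives were quantile normalization, common medians, no pseudocount, a filter at the 40th percentile on 3 arrays, array weights, averaged probe sets, a fit of all 12 arrays, a trended robust prior and each array left out. The common median over genes was added after seeing the data. Promoter windows came from the RefSeq table of GRCm38.p6.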

Additional observations from a re-analysis of the deposited data

Results flagged for a closer look

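Psmb8 differed between the pregnancy and estradiol changes by 0.33 on the log2 scale, by limma's test of the difference itself (adjusted p = 0.0205). Its call was lost in 3 of 12 fits that left out an array (adjusted p up to 0.0669) and with a common median (0.0523). Gbp2 differed by -1.06 in the same test (adjusted p = 0.0209), having risen by 1.07 after estradiol, and its call was lost in 3 of 12 fits that left out an array (adjusted p up to 0.0588).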

How the results depend on the processing

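No paired analysis was possible because replicate numbers follow deposit order only and mark no shared culture, animal or day. The count of members called after estradiol, 2 as reported, was 1 with a common median, 4 with the filter on dim genes, 8 with the trended robust prior and 9 with array weights (a fit that stopped before convergence), and 0 to 2 when 1 array was left out. The count for the difference of changes, 1 as reported, was 0, 3, 5 and 5 under the same 4 settings and 0 to 2 without single arrays. The pregnancy count was 0 in every setting run, and the source count stayed within 1.5 times its value. The estradiol median of the core genes was -0.02 with a common median, -0.08 with a common median of genes, -0.07 with averaged probe sets and -0.06 to -0.03 without single arrays. That of the regulatory genes was -0.02, -0.09 and -0.03 under the same settings, -0.04 with array weights and -0.07 to -0.04 without single arrays, and that of the assembly genes -0.09 with a common median of genes. Under this last scaling the pregnancy medians were 0.00 (core), 0.05 (regulatory) and -0.04 (immunoproteasome), and the source medians -0.19 (core) and -0.34 (regulatory). With averaged probe sets the source medians were -0.20 (regulatory) and -0.54 (assembly), and the source difference of Ubqln1, a shuttle factor, turned from 0.34 to -0.08. The source differences of Psmc6 and Psmf1 turned from called lower to called higher, at 0.39 and 0.52, in that setting, and no other called member turned its sign in any setting run. The cause of these shifts was not tested. With 3 arrays per group, small changes could not be told from the spread.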
